A study of Rattus norvegicus with 9 samples.

Results

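The genes followed here, 8 in all, bear on how a sensory neuron responds to the transmitter GABA: *Gabbr1* and *Gabbr2* for the GABA-B receptor, *Gad1*, *Gad2* and *Abat* for the making and breakdown of GABA, and *Slc12a2*, *Slc12a5* and *Slc12a7* for chloride transport. They were picked from the table by gene symbol, with earlier results of these data known, and are 8 of the 20194 genes in the deposited table. Of these, 5 (*Gabbr1*, *Gabbr2*, *Abat*, *Slc12a2* and *Slc12a7*) reached an FPKM of 1 in at least 1 library, as 14305 of all genes did. FPKM is a level scaled to transcript length and to the number of fragments in the library. The other 3, *Gad1*, *Gad2* and *Slc12a5*, stayed below that level in all 9 libraries.

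The libraries were made from dorsal root ganglia (DRG), the clusters of sensory nerve cell bodies and their glia beside the spinal cord, of male Sprague Dawley rats aged 8 to 10 weeks. The libraries formed 3 groups of 3, named sham (the surgical control), SNI and SNI + G15. In SNI, spared nerve injury, the tibial and common peroneal branches of the sciatic nerve are cut and the sural branch is left whole. G15 is an antagonist of GPER, the G protein-coupled oestrogen receptor, and was given into the intrathecal space on day 5 after SNI as 1 μl of 1.8 μg/μl. The labels mark both sham and SNI as controls of G15, but neither the labels nor the methods say whether these rats received the vehicle, so drug and injection cannot be told apart in the comparison of SNI + G15 with SNI. The vehicle was dimethyl sulphoxide, at 2% by the labels, 1% by the methods and 10% by the legends of the study's behavioural tests. The protocol given for all 9 libraries has an intrathecal catheter implanted on day 5 after SNI and drugs given through it for 24 h, without setting the groups apart. Day 5 is also the sampling day named by the study, and the hour of collection after G15 is not given in the sources used here. The methods name 3 rats per group for sequencing and the study's list of animal numbers 6, so whether a library is 1 rat is not settled, and p-values measure the spread between these libraries.

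The GABA-B receptor is a G protein-coupled receptor that works as a pair of different subunits. GABBR1 binds GABA, GABBR2 couples to the G protein, and on the central ends of sensory neurons the receptor lowers transmitter release. GABA is made from glutamate by the glutamate decarboxylases GAD67 (*Gad1*) and GAD65 (*Gad2*) and is broken down by GABA transaminase (*Abat*), which also acts on β-alanine. Whether opening a GABA-A channel excites or inhibits a cell depends on its chloride gradient: NKCC1 (*Slc12a2*) brings chloride in and keeps it high in DRG neurons, whereas KCC2 (*Slc12a5*) and KCC4 (*Slc12a7*) export it.

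Total estimated reads per library lay between 18484557 and 18756736. All 10 sensory neuron markers were above the FPKM filter, while 7 of 10 central nervous system markers were below an FPKM of 1 in each group. The 3 above it were *Mog* (2.29 to 2.39 in sham), *Slc17a7* (128.07 to 140.32 in sham) and *Gfap*. *Gfap* FPKM was 4.75 to 6.39 in sham, 30.63 to 32.52 in SNI and 41.23 to 44.61 with G15, called higher at each step. *Slc17a7* instead fell by 0.33 in SNI against sham (adjusted p = 0.000107, edgeR), so the listed genes did not move together. Their place on this list, written from general knowledge, does not show that they came from central tissue, whose content was not tested. The summed FPKM of the sensory neuron markers spanned 13857.5 to 14090.9 over the sham libraries, against 10560.1 to 10967.7 after SNI and 10628 to 11393.5 with G15. The most abundant genes weigh most in that sum. Mean FPKM of the neurofilament genes *Nefl*, *Nefm* and *Nefh* was 3685, 2332 and 2177 in sham and 2202, 1498 and 1408 in SNI. *Uchl1* was at 3123 and 3026, and *Prph*, peripherin, rose from 1342 to 1662. In SNI against sham 7 of those 10 markers were called lower and 1 higher, all 5 injury markers were called higher (*Atf3*, an injury-induced transcription factor, by 5.13 on the log2 scale), and 6 of 7 macrophage markers were called higher. With G15, compared with SNI alone, 2 of the neuron markers were called lower and 1 higher. Of 6 myelinating Schwann cell markers 5 were called lower after SNI and 5 were called higher with G15 than in SNI; their summed FPKM was 5129.49 to 5244.74 in sham, against 2809.46 to 2866.59 after SNI and 3035.91 to 3148.31 with G15. Of 6 satellite glia markers 2 were called higher and 1 lower after SNI. None of these markers was at 0 in all libraries of a group, but the injury marker *Sprr1a* had 0 to 1 reads in the sham libraries. In bulk tissue such as this, fewer cells of a type and less RNA per cell cannot be told apart.

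**Figure D1:**
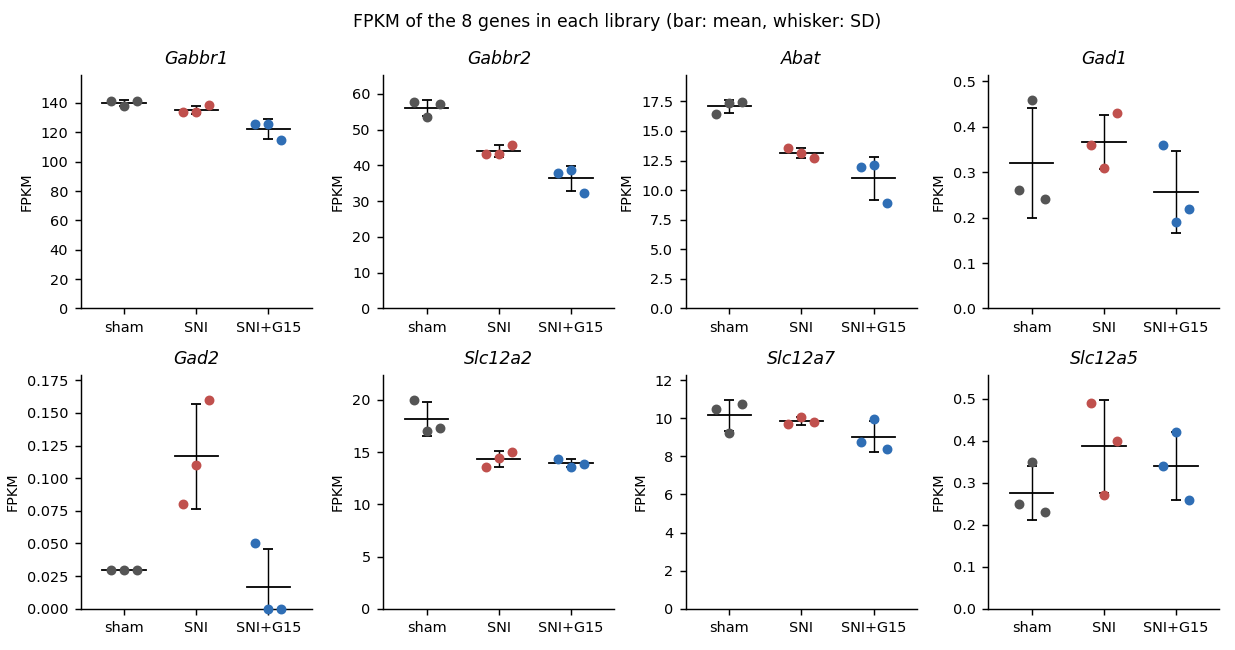
FPKM of the 8 genes (vertical axes, each from 0 and on its own scale) in the 3 libraries of each group (points), with the group mean (bar) and SD (whisker). *Gabbr2*, *Abat* and *Slc12a2* lie lower in every SNI library than in every sham library, and *Gad1*, *Gad2* and *Slc12a5* lie below 0.5 throughout.

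Across the 8 genes the levels spanned a wide range and kept nearly the same order in each group. In sham, mean FPKM was 140 ± 2.02 for *Gabbr1*, 56.1 ± 2.27 for *Gabbr2*, 18.1 ± 1.63 for *Slc12a2*, 17.1 ± 0.579 for *Abat* and 10.2 ± 0.807 for *Slc12a7* (SD, n = 3 each). The low genes followed with 0.32 ± 0.122 for *Gad1*, 0.277 ± 0.0643 for *Slc12a5* and 0.030 for *Gad2* (SD, n = 3), the last being 1 read in each sham library. Neighbours in this order were separated by their library ranges except *Slc12a2* and *Abat* in sham, *Abat* and *Slc12a7* in SNI + G15, and *Gad1* and *Slc12a5* in each of the 3 groups.

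The promoters of the receptor's subunits are shown because the genes of this pair moved by unequal amounts. Both are written 5′ to 3′ on the gene's strand up to the base before the RefSeq gene start, in RefSeq assembly GRCr8, with capitals marking the only cyclic AMP response element half-site found. The *Gabbr1* stretch is chr20:1499353-1499486 and the *Gabbr2* stretch is chr5:66083696-66083945, both on the minus strand.

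Gabbr1: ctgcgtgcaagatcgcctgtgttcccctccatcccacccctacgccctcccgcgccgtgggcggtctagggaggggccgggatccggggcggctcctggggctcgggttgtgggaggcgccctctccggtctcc

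Gabbr2: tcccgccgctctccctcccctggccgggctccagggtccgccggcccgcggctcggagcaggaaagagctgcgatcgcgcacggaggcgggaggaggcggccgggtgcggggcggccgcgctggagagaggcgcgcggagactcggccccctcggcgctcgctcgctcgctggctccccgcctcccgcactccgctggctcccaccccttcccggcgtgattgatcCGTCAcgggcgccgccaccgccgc

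The promoter table held 7 of the 8 genes. Their 250 bases before the start listed there were rich in G and C, from 59.2% in *Slc12a5* to 83.2% in *Slc12a2*, with a median of 71.6% against 51.2% over 33469 promoters. For *Gabbr1* part of those 250 bases lies inside the RefSeq gene, so the stretch printed above is cut to 134 bases. Searched on both strands, the half-site TGACG (the reverse complement of the capitals above) was in *Gabbr2* and in 18.2% of all promoters, an E-box CACGTG was in *Slc12a7* and in 5.59%, and TATAAA was in *Gad1* and in 12.9%. The full element TGACGTCA and the AP-1 letters TGACTCA were in none of the 7 and in 1.59% and 4.05% of all promoters. These letters are a description of the windows and not evidence of binding.

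*Gabbr2* fell after injury and was lower again with G15, whereas *Gabbr1*, the more abundant subunit, differed less. *Gabbr2* FPKM was 57.61, 53.48 and 57.18 in sham, 43.12, 43.05 and 45.78 in SNI, and 37.91, 38.81 and 32.33 in SNI + G15. The 3 groups did not overlap in any pair, and the third SNI + G15 library was the lowest of the 9. *Gabbr2* fell by 0.38 on the log2 scale in SNI against sham (SE 0.042, adjusted p = 3.39e-05, edgeR) and by 0.26 in SNI + G15 against SNI (SE 0.065, adjusted p = 0.0286, edgeR). The second call was lost when any of the SNI libraries was left out, with adjusted p of 0.0727, 0.0802 and 0.116 without SNI library 1, 2 and 3. Without the third SNI + G15 library it fell by 0.19 (adjusted p = 0.00962, edgeR). SNI + G15 against sham, which shares libraries with both other comparisons, gave a log2 fold change of -0.67 (SE 0.068, adjusted p = 3.82e-05, edgeR).

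*Gabbr1* FPKM was 141.39, 137.93 and 141.46 in sham, 133.54, 133.80 and 138.48 in SNI, and 125.98, 125.95 and 114.63 in SNI + G15. Sham and SNI overlapped only where the highest SNI library reached 138.48 against the lowest sham library at 137.93, and all 3 SNI + G15 libraries lay below both other groups. The log2 fold change was -0.080 in SNI against sham (SE 0.031, adjusted p = 0.0576) and -0.13 in SNI + G15 against SNI (SE 0.042, adjusted p = 0.0651), neither past the threshold of 0.05 in edgeR. *Gabbr1* was called in SNI + G15 against sham, where it fell by 0.24 (SE 0.048, adjusted p = 0.00301, edgeR). Leaving out sham library 2 brought the SNI comparison to adjusted p = 0.0343, and leaving out the third SNI + G15 library brought the G15 comparison to 0.0467. The estimated counts of *Gabbr1* and *Gabbr2* were not whole numbers in any of the 9 libraries, so the counting had divided some of their reads with other features.

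Set against each other within a library, *Gabbr2* lost ground to *Gabbr1*. The ratio of *Gabbr2* to *Gabbr1* FPKM was 0.407, 0.388 and 0.404 in sham, 0.323, 0.322 and 0.331 in SNI, and 0.301, 0.308 and 0.282 in SNI + G15. No group overlapped another. The mean log2 ratio differed by -0.30 in SNI against sham, by -0.13 in SNI + G15 against SNI and by -0.43 in SNI + G15 against sham. Each gave p = 0.1 in a two-sided exact permutation test, the smallest value that 3 libraries against 3 allow, and 0.225 after adjustment over the 9 ratio tests made.

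**Figure D2:**
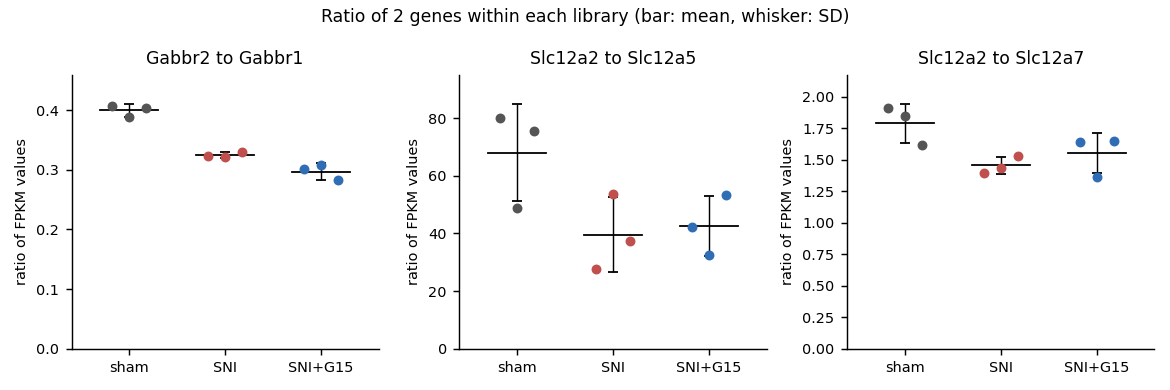
Ratio of FPKM values of 2 genes within each library (vertical axes from 0; points are libraries, bars means, whiskers SD). The *Gabbr2* to *Gabbr1* ratio separates all 3 groups, while the SNI + G15 libraries overlap SNI in both *Slc12a2* ratios.

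Of the genes for GABA turnover, the breakdown enzyme was well measured and the synthetic enzymes were hardly present. *Abat* FPKM was 16.40, 17.36 and 17.44 in sham, 13.53, 13.17 and 12.70 in SNI, and 11.94, 12.13 and 8.88 in SNI + G15. Every SNI library lay below every sham library and every SNI + G15 library below every SNI library, with the third SNI + G15 library well below the rest. *Abat* fell by 0.40 on the log2 scale in SNI against sham (SE 0.048, adjusted p = 6.67e-05, edgeR). With G15 the log2 fold change from SNI was -0.26 (SE 0.10, adjusted p = 0.118, edgeR), and -0.13 (adjusted p = 0.12) without the third SNI + G15 library. Against sham the SNI + G15 group gave -0.68 (SE 0.10, adjusted p = 0.000404, edgeR), and -0.54 without that library (adjusted p = 6.94e-05).

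*Gad1*, the decarboxylase found throughout the cell body of GABA neurons, had 15, 27 and 14 reads in sham, 21, 18 and 25 in SNI and 21, 11 and 13 in SNI + G15. The groups overlapped and no comparison passed the test over the 20091 genes with at least 1 read, with adjusted p of 0.752, 0.352 and 0.492 in SNI against sham, SNI + G15 against SNI and SNI + G15 against sham (edgeR). *Gad2*, the decarboxylase of nerve terminals, had 1, 1 and 1 reads in sham, 3, 4 and 6 in SNI and 2, 0 and 0 in SNI + G15. All 3 SNI libraries held more *Gad2* reads than any library of the other groups, though none held more than 6. The summed reads were 13 in SNI against 3 in sham, a ratio of 4.33 (95% exact interval 1.19 to 23.7), and 13 against 2 in SNI + G15, a ratio of 6.50 (1.47 to 59.3). These intervals cover counting error only. Across libraries *Gad2* was not called, with adjusted p of 0.0583 for SNI against sham and 0.136 for SNI + G15 against SNI (edgeR). A count of 0, as in SNI + G15 libraries 2 and 3, allows up to 3 reads, or a *Gad2* FPKM of 0.0809 to 0.0821 depending on the library. All sham libraries, SNI + G15 library 1 and SNI library 1 held 1 to 3 reads, no more than that bound. Such counts are too few to give a level at this depth.

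Among the chloride transporters, the importer fell after injury and the abundant exporter did not pass the test. *Slc12a2* FPKM was 20.00, 17.04 and 17.35 in sham, 13.54, 14.48 and 15.02 in SNI, and 14.36, 13.61 and 13.85 in SNI + G15. All injured libraries, with or without G15, lay below all sham libraries, and SNI and SNI + G15 overlapped. *Slc12a2* fell by 0.37 on the log2 scale in SNI against sham (SE 0.063, adjusted p = 0.000841, edgeR) and by 0.42 in SNI + G15 against sham (SE 0.067, adjusted p = 0.000658, edgeR). Between SNI and SNI + G15 the log2 fold change was -0.028 (SE 0.049, adjusted p = 0.728, edgeR).

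*Slc12a7* FPKM was 10.49, 9.24 and 10.75 in sham, 9.69, 10.07 and 9.82 in SNI, and 8.76, 9.96 and 8.41 in SNI + G15. The groups overlapped in every pair. Its log2 fold changes were -0.076 in SNI against sham (adjusted p = 0.328), -0.11 in SNI + G15 against SNI (adjusted p = 0.281) and -0.21 in SNI + G15 against sham (adjusted p = 0.0651), all by edgeR. Without sham library 2, the lowest sham library, the first became -0.14 (adjusted p = 0.0367) and the third -0.28 (adjusted p = 0.0281).

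*Slc12a5*, the exporter that marks mature central neurons, had 25, 36 and 24 reads in sham, 50, 28 and 41 in SNI and 35, 43 and 27 in SNI + G15. These correspond to an FPKM of 0.23 to 0.49 with overlapping groups. Its log2 fold change was 0.45 in SNI against sham (SE 0.26, adjusted p = 0.226, edgeR over all genes with at least 1 read).

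The balance of importer to exporter was taken as the FPKM ratio within each library. *Slc12a2* to *Slc12a7* was 1.91, 1.84 and 1.61 in sham, 1.40, 1.44 and 1.53 in SNI, and 1.64, 1.37 and 1.65 in SNI + G15. Sham and SNI did not overlap, with a mean log2 difference of -0.29 (exact permutation p = 0.1, adjusted p = 0.225), while SNI + G15 overlapped both. *Slc12a2* to *Slc12a5* was 80.0, 48.7 and 75.4 in sham, 27.6, 53.6 and 37.6 in SNI, and 42.2, 32.4 and 53.3 in SNI + G15. Sham and SNI overlapped here, and the exact permutation p was 0.2, 0.8 and 0.2 in the 3 comparisons. The importer stood above both exporters in each of the 9 libraries.

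**Figure D3:**
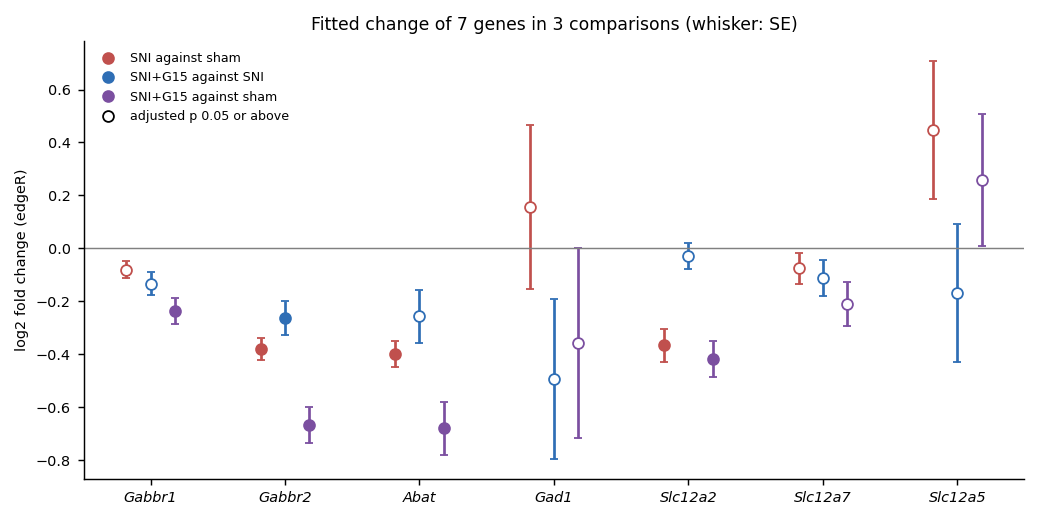
Fitted log2 fold change of 7 of the 8 genes (vertical axis) in 3 comparisons (colours), with SE as whiskers and filled points where adjusted p was below 0.05. *Gabbr2*, *Abat* and *Slc12a2* are filled and below 0 in both comparisons with sham, and *Gabbr2* alone is filled in SNI + G15 against SNI; *Gad2* is left out because it rests on 6 reads or fewer per library.

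Counted together, 3 of the 5 genes above the filter were called in SNI against sham, all lower, where 45.7% of the 14305 tested genes were called (22.4% lower). For SNI + G15 against SNI, 1 of 5 was called, lower, against 15.2% of tested genes (7.25% lower). For SNI + G15 against sham, 4 of 5 were called, all lower, against 43.2% (21.9% lower). Over all genes with at least 1 read 33.4%, 9.45% and 31.9% were called, and none of the 3 low genes was by edgeR. By limma-trend, *Gad2* was called higher in SNI against sham, with adjusted p of 0.0306 and 0.0176 at pseudocounts of 1 and 0.1. These were the only 2 of 15 alternatives that called it. DESeq2 gave adjusted p = 0.269, and edgeR with a replicate block 0.135. The median log2 fold change of the 5 genes was -0.37, -0.13 and -0.42 in these comparisons, against 0.0010, 0.0063 and -0.0037 over all tested genes. FPKM values without overlap were seen above in SNI against sham for *Gabbr2*, *Abat* and *Slc12a2*, all lower, and for *Gad2*; they were found in 53.9% of the genes above the filter (22.8% lower) and in 43.2% of all genes with a read. Between SNI + G15 and SNI, *Gabbr1*, *Gabbr2* and *Abat* were lower without overlap, as was *Gad2*, and the corresponding shares were 38.3% (21% lower) and 30.3%. Between SNI + G15 and sham, 4 genes were lower without overlap, *Gabbr1*, *Gabbr2*, *Abat* and *Slc12a2*, and the shares were 52.9% (22.8% lower) and 42.8%.

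The neuron markers are set beside these changes. The median log2 fold change of the 10 sensory neuron markers was -0.44 for SNI against sham and -0.030 for SNI + G15 against SNI; in the former the single markers ran from -0.77 for the neurofilament gene *Nefl* to 0.28 for *Prph*, peripherin, both called. *Gabbr2*, *Abat* and *Slc12a2* fell by 0.38, 0.40 and 0.37 there. In SNI + G15 against SNI the single markers ran from -0.19 for *Elavl4* to 0.10 for *Prph*, both called. There *Gabbr2* at -0.26 lay below that range, whereas *Gabbr1* at -0.13 lay within it, beside *Snap25* at -0.13. Neither was tested as a difference from the markers. The summed marker levels are given above, and the part of neuron content in these values was not tested.

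The sum of all FPKM values was 507831 to 534676 in the SNI + G15 libraries, against 476468 to 496640 for sham and 484669 to 494296 for SNI, and highest in the third SNI + G15 library. Genes of like length are set beside it: the 500 tested genes nearest to *Gabbr2* in length had a median log2 fold change of -0.094 in SNI + G15 against SNI, and those nearest to *Slc12a2* one of -0.11. Relative to these, *Gabbr2* stood at -0.17, *Gabbr1* at -0.055 and *Slc12a2* at 0.081. For *Abat*, of shorter transcripts, the median of like length was -0.0016 and the relative value -0.26. In SNI against sham the medians of like length were between -0.0027 and 0.054, and *Gabbr2*, *Abat* and *Slc12a2* stood at -0.41, -0.40 and -0.42 relative to them.

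Of the 8 genes, 4 are listed with more than 1 transcript, 13 transcripts being listed in all. For *Gabbr1* the main transcript had an FPKM of 120.66 to 127.31 in sham, lay between 113.91 and 117.51 in SNI and between 100.93 and 107.79 with G15, and these ranges did not overlap, unlike those of the gene. The share of the main transcript was 85.3% to 91.1% in sham and 84.4% to 88.0% in SNI. Its length is 95.8% of that of the other *Gabbr1* transcript, so the division of reads between them, and with it this separation, is uncertain. The longer *Abat* transcript held 75.2% to 84.1% of the gene in sham and also separated the 3 groups, at 13.05 to 13.79, 10.03 to 11.40 and 7.07 to 9.76 FPKM. For *Slc12a2* the split was unstable: the second transcript had an FPKM of 5.28 to 6.17 in sham, but ranged from 1.85 to 5.33 after SNI and from 1.2 to 6.87 with G15, while the gene's total stayed between 13.54 and 15.02 in those 6 libraries. Its 2 transcripts differ little in length, the shorter being 99.1% of the longer, and dividing reads between such transcripts is uncertain.

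**Figure D4:**
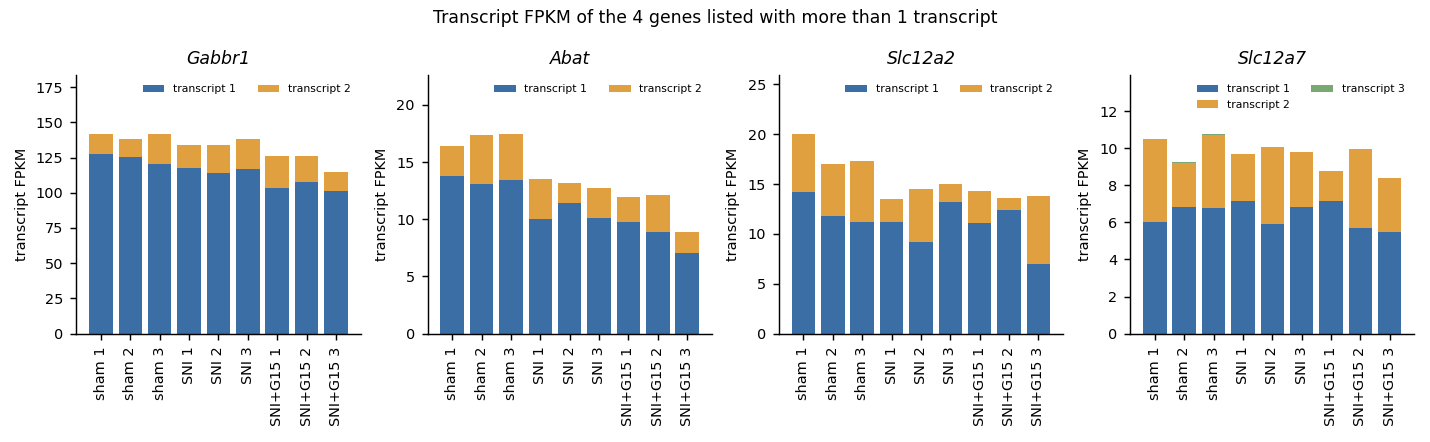
FPKM of each transcript (stacked bars from 0, vertical axes) in the 9 libraries for the 4 genes with more than 1 listed transcript. The *Abat* totals of the 3 groups do not overlap and the *Gabbr1* totals of sham and SNI do, whereas the split between the 2 *Slc12a2* transcripts varies widely between libraries of the same group.

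The surroundings of these genes were taken from lists written from general knowledge, with values given for up to 4 genes of each. Of 12 partners and effectors of the GABA-B receptor, 4 were called higher and 6 lower in SNI against sham, with a median log2 fold change of -0.19. The lower ones included *Kcnj3*, a subunit of the inwardly rectifying potassium channel that the receptor opens, which fell by 0.45 (FPKM 8.51 to 9.28 in sham and 6.37 to 7.07 in SNI), and the auxiliary subunit *Kctd8*, which fell by 0.39 (18.44 to 19.48 against 14.28 to 15.23). A related auxiliary subunit, *Kctd16*, rose by 0.61 (2.66 to 3.37 against 4.40 to 4.97), as did the inhibitory G protein subunit *Gnai3* by 0.31 (24.87 to 25.19 against 30.37 to 32.58). The named auxiliary subunits of the receptor did not move in one direction. With G15, 1 of the 12 was called against SNI: *Gnai1*, another inhibitory G protein subunit, fell by 0.24 (adjusted p = 0.0193, edgeR), a gene named after its values were seen.

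Of the GABA transport and supply list, 9 of 11 genes were tested and 3 were called in SNI against sham, all lower. *Slc6a13* (GAT2) fell by 1.4 on the log2 scale, from an FPKM range of 6.97 to 8.01 in sham to one of 2.69 to 2.93 in SNI. It encodes a transporter that takes GABA up into cells. *Gls2*, a glutaminase that yields glutamate, fell by 0.27. With G15, 2 of the 9 were called higher than in SNI and 2 lower. *Gls2* fell by a further 0.23 (adjusted p = 0.0285, edgeR). A further pair was seen among the values and lies outside the naming rule: *Glul*, glutamine synthetase, rose by 0.40 (adjusted p = 0.000265, edgeR) from an FPKM range of 125.18 to 130.16 to one of 165.19 to 169.27, and *Aldh5a1*, the dehydrogenase that follows *Abat* in GABA breakdown, fell by 0.21 (adjusted p = 0.0375, edgeR). The vesicular GABA transporter *Slc32a1* had 1 to 11 reads per library.

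Of 14 other cation-chloride cotransporters and their regulatory kinases, 11 were tested, and 3 were called higher and 3 lower in SNI against sham (median 0.10). The kinase genes *Stk39* (SPAK) and *Oxsr1* (OSR1), whose products phosphorylate and activate NKCC1, rose by 0.32 and 0.23, while of the upstream kinase genes *Wnk4* and *Wnk2* fell by 0.67 and 0.22 and *Wnk1*, named after its values were seen, rose by 0.18 (adjusted p = 0.00509, edgeR). *Stk39* FPKM was 68.63 to 71.54 in sham but 88.43 to 89.85 after SNI and 86.90 to 88.10 with G15. *Stk39* and *Oxsr1* rose where *Slc12a2* itself fell, each being called. With G15, 1 of 11 was called against SNI: *Wnk1* fell by 0.17 (adjusted p = 0.0291, edgeR).

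Of 10 other chloride channels and exchangers, 3 were called higher and 2 lower in SNI against sham, with a median of 0.00018. *Ano6*, a calcium-activated scramblase and channel, rose by 0.51, the endosomal exchanger *Clcn5* rose by 0.45 and the calcium-activated channel *Ano1* by 0.24, while the exchanger *Clcn4* fell by 0.46. With G15 only *Clcn4* of the 10 was called against SNI, and fell by 0.21 (adjusted p = 0.0184, edgeR). The shares of tested genes called, given above, were 45.7% in the first comparison and 15.2% in the second.

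**Figure D5:**
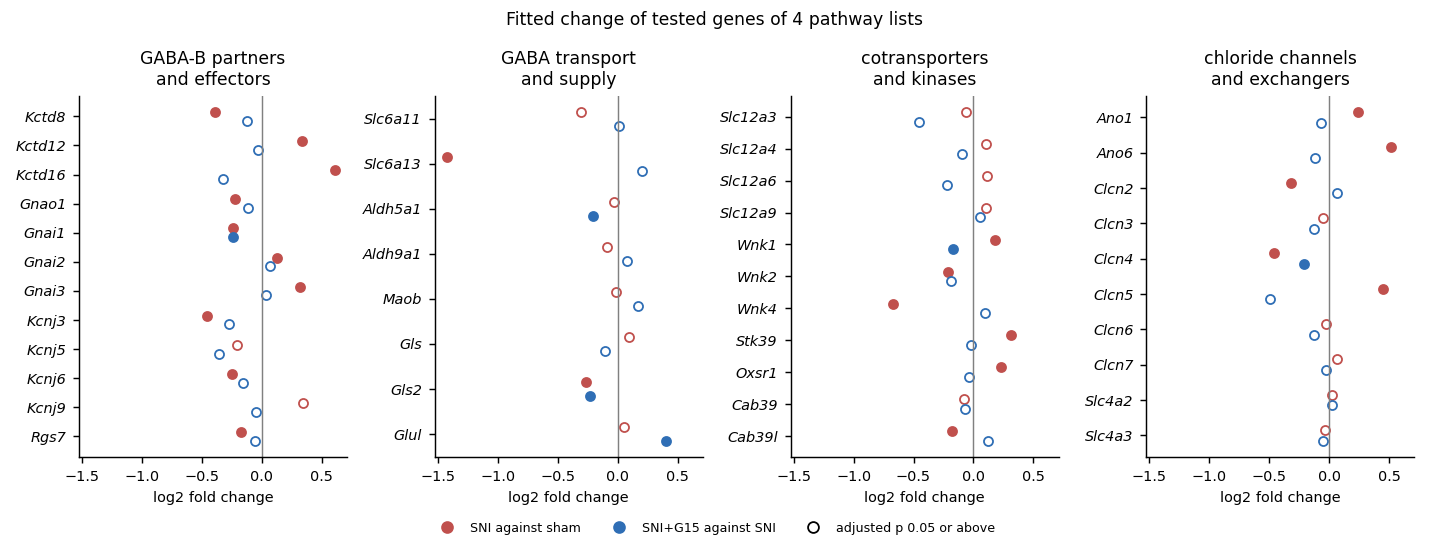
Fitted log2 fold change (horizontal axes) of tested genes of 4 lists (rows) for 2 comparisons (colours: SNI against sham, SNI + G15 against SNI), filled where adjusted p was below 0.05. Of the genes drawn, *Slc6a13* lies farthest below 0 after injury, and *Glul* is the filled point above 0 with G15.

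Likeness to the called genes was measured as the root mean square difference over the 9 libraries between log2(CPM + 1) profiles, each taken relative to its own sham mean. Among 14304 other tested genes, those nearest to *Gabbr2* were *Tmem132e* (0.0268) and the pain-fibre sodium channel *Scn10a* (0.0276). *Scn10a* differed from sham by -0.40 in SNI and -0.62 in SNI + G15 on that scale. Nearest to *Abat* were *Sh3gl2* (0.0543), *Cadps* (0.0550) and *Camk1d* (0.0596), of which *Sh3gl2* and *Cadps* serve synaptic vesicle recycling and release. Nearest to *Slc12a2* were *Tmem74* (0.0541), *Aldh6a1* (0.0553) and *Dhtkd1* (0.0577), the last pair being mitochondrial enzymes of amino acid breakdown. *Aldh6a1* differed from sham by -0.38 in SNI and -0.37 in SNI + G15. The genes are alike only in this measure.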

How the data were processed

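Estimated counts of reads and FPKM values per gene and per transcript were deposited by the authors for 9 rat DRG libraries. By the study's methods, NEBNext libraries were sequenced on an Illumina instrument as paired reads of 150 bases, and transcript FPKM values were summed per gene. The labels describe another extraction (RNA of macrophages and another kit), and the submitters' processing notes list GRCm38 and mm10, which are mouse builds. The aligner and annotation are not given in the sources used here, and no gene coordinates of the files' build are given. The gene identifiers are rat NCBI identifiers, of which 8 of 8 for the genes followed and 18599 of 20194 in all matched a RefSeq table. Promoters are from RefSeq, assembly GRCr8. Between 70.9% and 72% of the gene counts of a library were whole numbers to within 1e-06.

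After rounding of the counts, 2 groups at a time were compared by the quasi-likelihood test of edgeR 4.0.16 (R 4.3.3, TMM scaling), on genes whose FPKM reached 1 in any library, with Benjamini-Hochberg adjustment over all genes tested and a threshold of 0.05. DESeq2 is named by the study's methods and was an alternative (1.42.0), as was limma-trend (3.58.1). SE is the size of the log2 fold change divided by the root of F. Genes under the filter took their values from the same test over all 20091 genes with a read. Within-library ratios were formed as log2 of FPKM + 0.1 and compared with two-sided exact permutation tests; the printed ratios are without the pseudocount. The procedures were tested on simulated data.

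The genes and the lists were chosen with earlier results of these data known. All 8 genes were named. From each pathway list at most 4 genes were named, those with the smallest adjusted p in SNI against sham and no overlap between the groups, and for each gene called in that comparison the 3 genes most like it, except genes that are not reported here. Same-numbered libraries did not deviate together (correlations of -0.128 to 0.069, 0 of 9 over 0.1), so the numbers were not taken as pairs. Columns named Control were taken as sham. The authors' principal components, correlations and plot values were not used. Each group had 3 libraries, and near-equal depth of 18484557 to 18756736 reads means that precision differs mainly by gene.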

Additional observations from a re-analysis of the deposited data

How the results depend on the processing

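The calls of *Gabbr2*, *Abat* and *Slc12a2* against sham, in SNI and in SNI + G15, and of *Gabbr1* in SNI + G15 held in all 15 alternatives: DESeq2, RLE and upper-quartile scaling, other filters, a replicate block, one fit to all 9 libraries, limma on FPKM with pseudocounts of 0.1 and 1, and each library left out in turn. The number of the 8 genes called in SNI + G15 against SNI was 1, but 2 with all 9 libraries in one fit and 0 with a replicate block, where *Gabbr2* had adjusted p = 0.0602. With each library left out in turn it was 0 to 2 (0 without SNI library 1, 2 or 3, and 2 without SNI + G15 library 3). The replicate block moved the calls over all genes in that comparison from 2179 to 1292. The number called in SNI against sham was 3 to 5 over the libraries left out, the 5 being without sham library 2. The cause was not tested.

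Signs turned only in values that were not called. With a library left out, the log2 fold change of *Gad1* was -0.010 to 0.52 in SNI against sham (negative without sham library 3) and -0.67 to 0.0014 in SNI + G15 against sham (positive without sham library 2). In SNI + G15 against SNI, *Slc12a5* was at -0.37 to 0.036 (positive without SNI library 1) and *Slc12a2* at -0.066 to 0.0061 (positive without SNI library 3), and at 0.081 relative to genes of like length, an alternative chosen after seeing the data. The log2 difference of the *Slc12a2* to *Slc12a5* ratio in that comparison, 0.095, was -0.098 to 0.29 with a library left out, negative at -0.098 without SNI library 1 and -0.037 without SNI + G15 library 3. The *Gabbr2* to *Gabbr1* differences stayed at -0.32 to -0.28, -0.16 to -0.094 and -0.45 to -0.39 with a library left out. Depth limited *Gad1*, *Gad2* and *Slc12a5*, and 3 libraries a group limited every ratio, whose smallest exact p is 0.1.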
